A study of Mus musculus with 4 samples.

Results

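Tcf7, Lef1, Satb1, Bach2, Foxp1, Foxo1, Tox and Tox2 encode nuclear factors linked to naive, stem-like or persistently stimulated T cells, and they were taken by name from a list of 8 genes. Of these, 7 were read by at least 1 probe set that names the gene alone, and Tcf7 was not analysed here. The 7 genes were read by 27 probe sets, out of 18194 genes that the array reads separately. The rule used gene names, not measured values, but the list was chosen with earlier results of these data known. The genes were measured in mouse CD4+ T cells activated for 72 h under conditions that favour the Th17 fate, the helper T cell fate marked by IL-17.

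TCF-1 (the product of Tcf7) and LEF1 are related HMG-box factors that bind DNA with β-catenin or Groucho corepressors and sustain naive and memory T cells. FOXO1 is a forkhead factor that keeps naive T cells at rest by inducing the IL-7 receptor, KLF2 and lymph node homing receptors, and it leaves the nucleus when AKT is active. FOXP1 is another forkhead factor of T cell quiescence. SATB1 folds chromatin in developing T cells, and BACH2 pairs with small MAF proteins to repress effector genes. TOX and TOX2 are HMG-box proteins that are linked to T cell development, persistent stimulation and the follicular helper fate.

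All 4 cultures came from C57BL/6J mice with the OT2 T cell receptor transgene. STAT3-deficient cells carried a floxed Stat3 allele and a Cre driven by the Cd4 promoter, and STAT3 wild-type cells had the floxed allele without Cre. STAT5-deficient cells carried floxed Stat5 with the same Cre, and STAT5 wild-type cells had floxed Stat5 without it. Sorted naive CD4+ cells from spleen and lymph nodes were stimulated by plate-bound antibodies to CD3 and CD28 with IL-6 (20 ng/ml), TGF-β (2 ng/ml) and an IL-4-blocking antibody in every group. The STAT3 pair also received an IL-2-blocking antibody (10 µg/ml), and the STAT5 pair received IL-2 (100 IU/ml). The labels do not state the age or number of mice. The genotype field of both deficient samples ends in the words wild type, against their titles, and the titles set the groups. The Cd4 promoter also drives Cre in CD8 T cells, which pass through a CD4-positive stage.

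Each group had 1 array, so no difference has a replicate check and none has a p-value. A level is the deposited value per probe set, read as log2, and a gene is shown by its probe set with the highest mean. A difference of 1 or more in size (2-fold) is called higher or lower. The background level was set at 6.20, which is the median over all probe sets and arrays. Stat3 stood at 9.93 on the STAT3-deficient array and 12.87 on the STAT3 wild-type array. Stat5a (5.91 against 10.92) and Stat5b (6.09 against 11.33) were lower on the STAT5-deficient than on the STAT5 wild-type array. All 9 measured CD4 T cell genes lay at 10.88 or higher on every array. Of 20 measured markers of other blood cells, 6 to 8 exceeded background on each array, and 11 exceeded it on none. Their summed level was 115 in STAT3-deficient, 119 in STAT3 wild-type, 117 in STAT5-deficient and 114 in STAT5 wild-type cells. The medians of these arrays were 6.10, 6.34, 6.21 and 6.15 in the same order. The sum thus also holds background signal and array scaling, and it does not measure the share of other cells. Klrd1, an NK receptor gene also found in T cells, was the highest of the 20 markers, though level with Cd8b1 on the STAT5-deficient array. It was at 8.02 in STAT3-deficient against 9.30 in STAT3 wild-type cells (-1.27), and at 7.82 in STAT5-deficient against 9.38 in STAT5 wild-type cells (-1.56). The CD8 T cell marker Cd8b1 ran from 7.70 to 8.06 over the arrays and the myeloid marker Csf1r from 7.12 to 7.73. The part of these markers in any result below was not tested. In bulk RNA, fewer cells of a type and less RNA per cell cannot be told apart.

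All 7 measured factors lay above background on all 4 arrays, with 8.14 as the lowest level. Without STAT3, Satb1, Tox2 and Bach2 were lower and none of the 7 was higher, while 7.23% of the 12440 genes compared were lower and 2.85% higher. Without STAT5, Tox2 and Tox were higher and none was lower, against 1.86% of genes higher and 1.74% lower. Between the controls none of the 7 passed 2-fold, against 2.35% of genes higher and 2.95% lower with added IL-2. The median difference of the 7 was -0.84 without STAT3, 0.47 without STAT5 and -0.23 between controls, beside -0.20, 0.07 and 0.06 for all genes compared. Because the median gene was at -0.20 in the STAT3 pair, differences there were also taken after centring. The split of called genes was 354 higher and 900 lower as deposited, 514 and 590 with arrays centred on their medians, and 498 and 581 after intensity-dependent centring. With either centring Bach2 fell short of 2-fold and Tox passed it on the higher side. The control split was 292 higher and 367 lower as deposited and 593 and 228 with arrays centred.

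**Figure D1:**
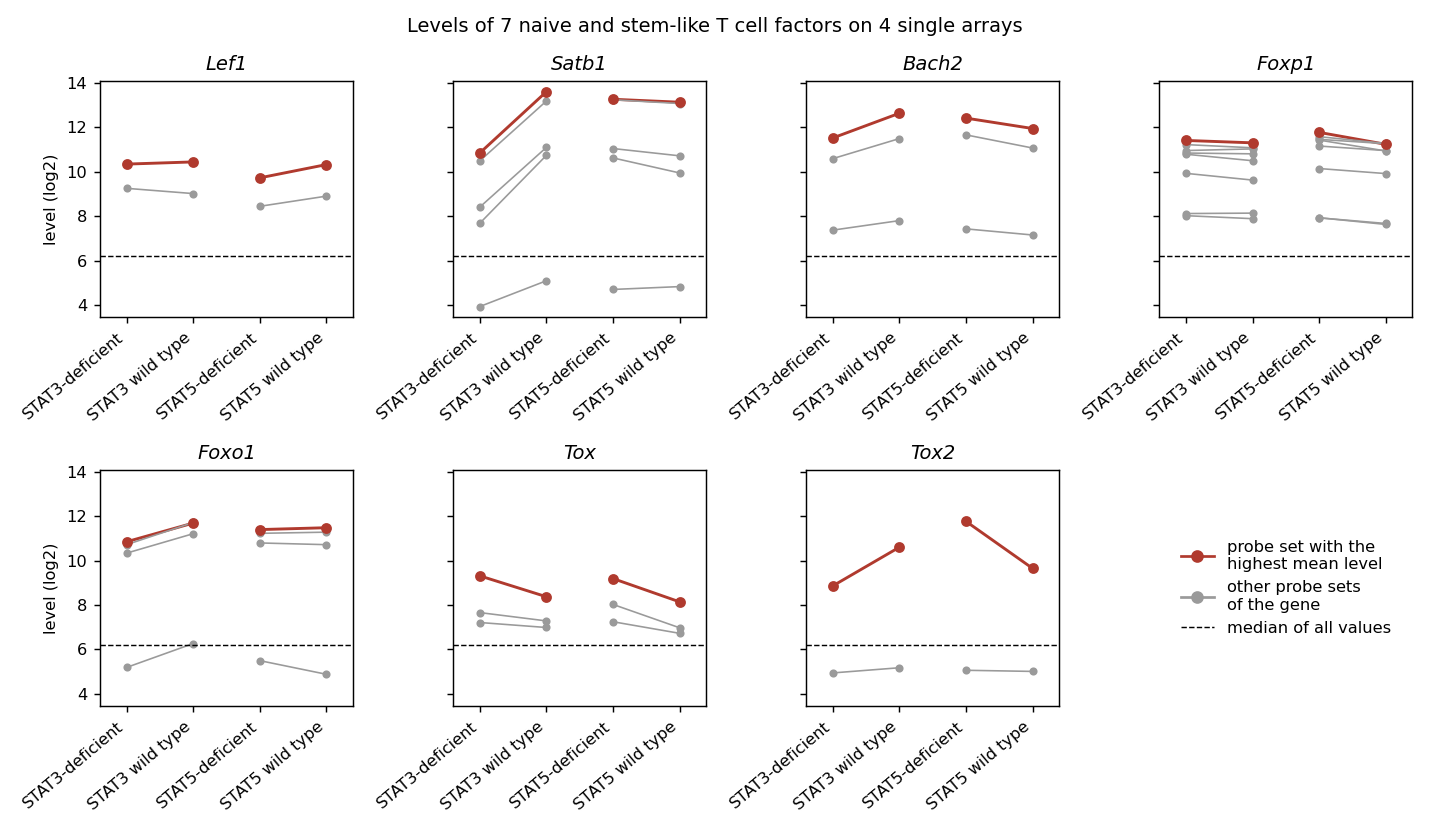
Levels (log2, vertical axis) of the 7 factors on the 4 arrays, with each deficient culture left of its control; red points are the probe set with the highest mean, grey points the gene's other probe sets, and the dashed line is the median of all values, 6.20. Satb1 is lowest on the STAT3-deficient array in each of its 5 probe sets, and Tox2 is lowest on the STAT3-deficient and highest on the STAT5-deficient array.

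Promoter windows from RefSeq (GRCm38.p6), 250 bases before to 50 after each listed start, were held for 7 of the 8 genes, with 21 windows in all and none for Tox. The STAT motif TTCNNNGAA, which reads the same on both strands, was in 1 member window, that of Bach2, and in 8.30% of all 32851 windows. The TCF and LEF motif CTTTGAT, sought on both strands, was in 2 overlapping windows of Tox2 and in 3.73% of all windows. The FOXO motif GTAAACA, also on both strands, was in 1 window, of Tcf7, and in 3.65% of all. None of the motifs was in the 5 windows of Satb1. These matches describe the letters only. The windows below are those of Bach2 (chr4:32417185-32417484, plus strand) and of Tox2 (chr2:163225203-163225502, plus strand), which carry a motif, in capitals, and the most upstream one of Satb1 (chr17:51833241-51833540, minus strand), the gene with the largest difference without STAT3. Each is written 5′ to 3′ on the gene's strand. In Bach2 the match begins 140 bases before the start, and the capitals in Tox2 also begin 140 bases before it and show the motif on the opposite strand.
Bach2: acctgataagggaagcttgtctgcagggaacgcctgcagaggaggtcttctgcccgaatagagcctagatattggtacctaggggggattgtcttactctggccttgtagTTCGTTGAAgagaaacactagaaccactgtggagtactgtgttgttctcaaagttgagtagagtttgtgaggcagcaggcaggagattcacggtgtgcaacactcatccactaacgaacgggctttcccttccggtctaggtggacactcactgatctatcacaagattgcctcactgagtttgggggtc
Tox2: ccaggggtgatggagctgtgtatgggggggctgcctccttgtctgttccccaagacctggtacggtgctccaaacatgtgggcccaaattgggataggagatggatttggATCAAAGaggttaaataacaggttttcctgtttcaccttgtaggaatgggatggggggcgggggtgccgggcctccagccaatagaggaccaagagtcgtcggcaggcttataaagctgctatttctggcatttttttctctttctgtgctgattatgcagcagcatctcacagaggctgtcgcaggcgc
Satb1: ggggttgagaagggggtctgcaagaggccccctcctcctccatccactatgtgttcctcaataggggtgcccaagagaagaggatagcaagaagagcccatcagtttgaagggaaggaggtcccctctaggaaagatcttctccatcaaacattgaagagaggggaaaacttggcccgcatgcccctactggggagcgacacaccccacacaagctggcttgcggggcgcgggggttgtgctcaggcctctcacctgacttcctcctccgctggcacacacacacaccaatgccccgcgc

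Satb1, the chromatin organiser, had the largest difference of the 7 without STAT3. Its level was 10.85 without STAT3, against 13.61 in the STAT3 control, and 13.27 without STAT5, against 13.14 in the STAT5 control. The STAT3-deficient array thus stood apart from the other 3, which lay within 0.47 of each other. The STAT3 difference was -2.76, or 6.78-fold lower, and 82 of 12440 genes (0.659%, Satb1 included) were lower by as much or more. The 4 probe sets above background agreed closely, from -3.06 to -2.69 (SD 0.18), and the fifth, under background on all 4 arrays, was at -1.16. Relative to the median gene the difference was -2.56. Without STAT5 the same 4 probe sets ran from 0.13 to 0.68, all under 2-fold. Between the controls Satb1 was lower with IL-2 added by less than 2-fold (-0.47, and -0.79 to -0.11 over the probe sets).

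Bach2, the repressor of effector genes, had the same order of arrays as Satb1. It stood at 11.53 without STAT3 and 12.64 in the STAT3 control, and at 12.42 without STAT5 and 11.95 in the STAT5 control. The STAT3 difference of -1.11 (2.16-fold) just passed the limit, and its other probe sets were at -0.90 and -0.43. It came to -0.87 with arrays centred, -0.98 after intensity-dependent centring and -0.82 with probe sets averaged, so its call rests on the processing while its direction does not. In all, 722 genes (5.80%) were lower by as much. Without STAT5 the 3 probe sets lay between 0.28 and 0.59, and between controls from -0.69 to -0.43, none past 2-fold.

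Tox2 was the one factor past 2-fold in both deletions, in opposite directions. Its level was 8.86 without STAT3, against 10.60 in the STAT3 control, and 11.77 without STAT5, against 9.65 in the STAT5 control. The lowest and highest arrays were thus the 2 deficient ones, 2.90 apart (7.48-fold). Without STAT3 Tox2 differed by -1.74 (3.35-fold lower), as far as 266 genes (2.14%). Without STAT5 it differed by 2.12 (4.34-fold higher), which only 27 genes (0.217%) equalled or passed, itself included. Between the controls it was lower with IL-2 added by -0.96, just short of 2-fold, and by -1.16 after intensity-dependent centring. These values rest on 1 probe set of a type that can match several transcripts. The other Tox2 probe set lay under background on all 4 arrays (4.94 to 5.18), and averaging it in gave -0.99 without STAT3 and 1.08 without STAT5.

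Tox, the closest relative of Tox2 among the 7, was on the higher side in both deletions. It stood at 9.32 without STAT3 and 8.38 in the STAT3 control, and at 9.19 without STAT5 and 8.14 in the STAT5 control. Both deficient arrays lay above both controls. The STAT5 difference was 1.05 (2.07-fold), with its other probe sets at 1.05 and 0.52. It was 0.985 with arrays centred and 0.87 with probe sets averaged, both short of 2-fold. The STAT3 difference was 0.94, with other probe sets at 0.38 and 0.22, and it was 1.18 with arrays centred, 1.12 after intensity-dependent centring and 0.51 with probe sets averaged. Between controls Tox was at -0.23. Tox and Tox2 thus differed in direction without STAT3 (0.94 and -1.74) and shared it without STAT5.

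**Figure D2:**
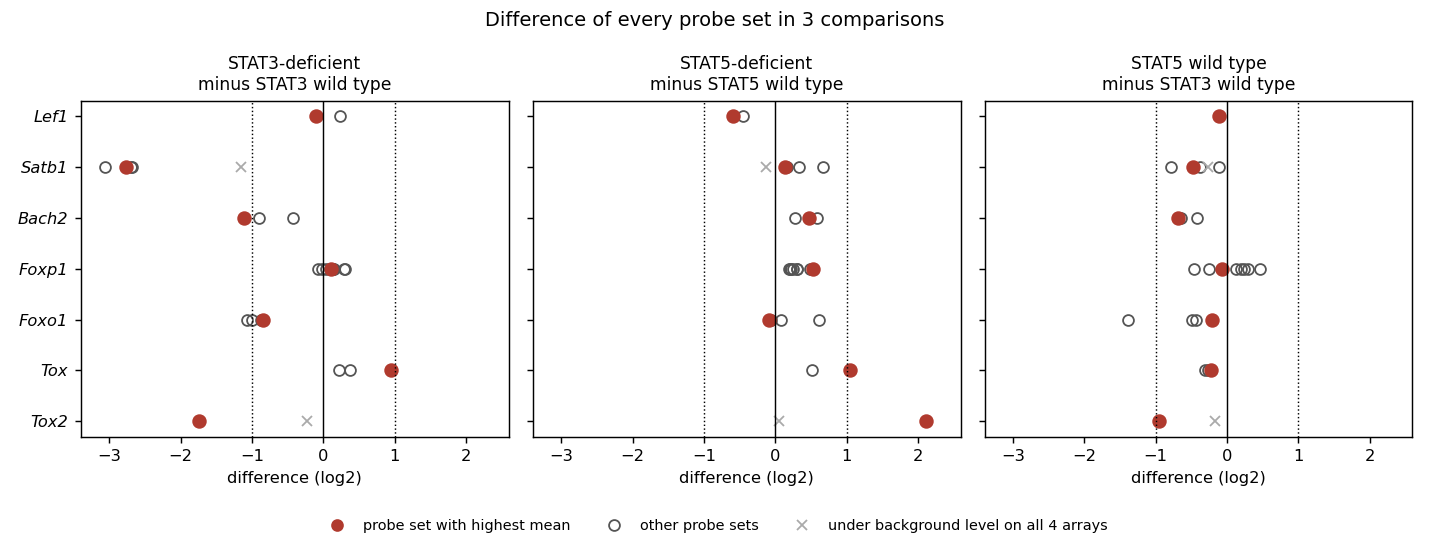
Difference (log2, horizontal axis) of each of the 27 probe sets in the 3 comparisons; red points are the probe set with the highest mean, open points the gene's other probe sets, crosses the 2 probe sets under background on all arrays, and dotted lines mark 2-fold. The 4 measured Satb1 probe sets cluster between -3.06 and -2.69 without STAT3, whereas no Foxp1 or Lef1 probe set passes 2-fold in any panel.

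Foxo1, the forkhead factor of quiescence, was lower without STAT3 by less than 2-fold. It was at 10.85 without STAT3 and 11.69 in the STAT3 control, and at 11.40 without STAT5 and 11.48 in the STAT5 control. Its STAT3 difference was -0.84 (1.79-fold). The 3 probe sets above background on every array were close, at -0.84, -0.999 and -0.87. The remaining one was at -1.08 but exceeded background on the STAT3 wild-type array alone. Centring the arrays gave -0.60. Without STAT5 Foxo1 was at -0.08, with its 4 probe sets on both sides of 0 (-0.08 to 0.62). Between controls it was at -0.21, and the other probe sets above background on all arrays were at -0.43 and -0.49.

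Foxp1 varied least of the 7, by 0.54 over the 4 arrays. It was at 11.42 without STAT3 and 11.31 in the STAT3 control, and at 11.78 without STAT5 and 11.24 in the STAT5 control, so that the STAT5-deficient array was the highest. The largest step was 0.54 (1.45-fold) without STAT5, where all 8 of its probe sets were above 0, from 0.20 to 0.54. Without STAT3 they ran from -0.07 to 0.30, with 6 of 8 above 0. Between controls they ran from -0.47 to 0.46, so no direction can be given there.

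Lef1 was the one factor on the lower side without STAT5 in every probe set. Its level was 9.73 in STAT5-deficient cells, against 10.33 in STAT5 wild-type cells, and 10.35 in STAT3-deficient cells, against 10.45 in STAT3 wild-type cells. The STAT5-deficient array stood below the other 3, which lay within 0.12 of each other. The STAT5 difference was -0.60 (1.51-fold, short of the limit) and its second probe set was at -0.46. In all, 619 genes (4.98%) were lower by as much. Without STAT3 the 2 probe sets were at -0.10 and 0.24, and centring turned the first to 0.15, so no direction can be given.

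Over all probe sets of the 7 genes, 25 of 27 exceeded background on at least 1 array. Without STAT3, 15 of these were lower and 10 higher, and 7 passed 2-fold, all lower, beside 7.82% lower and 2.58% higher of the 21819 probe sets that name 1 gene and exceed background on some array. The 7 include the Foxo1 probe set that exceeded background on the STAT3 wild-type array alone. Without STAT5, 21 were higher and 4 lower, and 3 passed 2-fold, all higher, beside 1.73% higher and 1.61% lower of all such probe sets. Between controls, 20 were lower with IL-2 added and 5 higher, and 1, the same dim Foxo1 probe set, passed 2-fold, beside 2.6% higher and 3.06% lower of all such probe sets. Probe sets of the same gene are not separate observations, and Foxp1 gave 8 of the 21 that were higher without STAT5. How all probe sets split by direction was not counted, so these counts by direction have no background beside them. The median of all genes compared was -0.20 without STAT3, 0.07 without STAT5 and 0.06 between controls. By gene, 5 of the 7 were lower without STAT3 and 5 higher without STAT5. The 5 lower include Lef1 at -0.10, and 60.0% of all genes compared were lower by as much or more. Among the 5 higher is Satb1 at 0.13, which 40.3% of all genes equalled or passed. The split of all genes around 0 was not counted, so neither count can be read as particular to the factors. As deposited, all 7 genes were on the lower side between controls. Foxp1 was nearest to 0 at -0.07, where 38.8% of all genes were lower by as much or more, and only 3 of its 8 probe sets were lower. Lef1 and Foxp1 turned to 0.07 and 0.12 with arrays centred, while after intensity-dependent centring all 7 were again lower (-1.16 to -0.28). The controls differ in floxed allele as well as in IL-2, and these cannot be told apart. The control comparison shares an array with each deletion comparison, so its values are not independent of theirs.

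**Figure D3:**
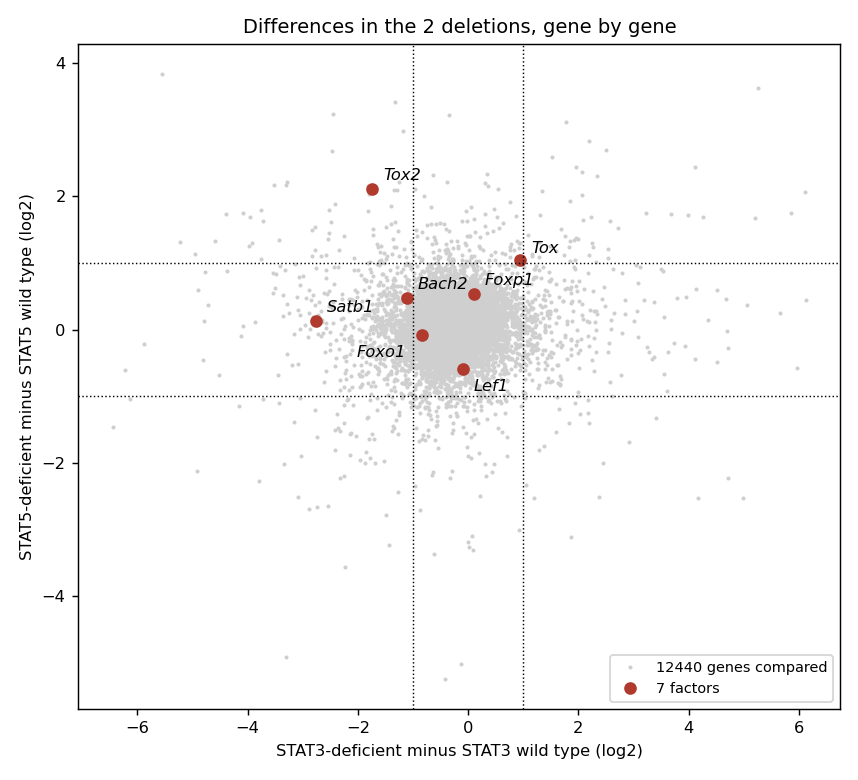
Difference without STAT3 (horizontal axis, log2) against difference without STAT5 (vertical axis, log2) for 12440 genes (grey) and the 7 factors (red), with dotted lines at 2-fold. Tox2 lies at -1.74 and 2.12 and Tox at 0.94 and 1.05, while Satb1 lies at -2.76 and 0.13.

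The 2 deletions share no array, and the gap between their effects (STAT5 effect minus STAT3 effect) was 3.86 for Tox2, 2.89 for Satb1 and 1.58 for Bach2. It was 0.76 for Foxo1, 0.43 for Foxp1, 0.11 for Tox and -0.50 for Lef1. The gaps were not tested. The pairs also differ in IL-2, which cannot be told apart from which STAT was deleted.

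Genes around the factors were described by lists. Of 10 measured genes that FOXO1 is known to induce, 5 were lower and none higher between controls with IL-2 added (median -0.96, all genes 0.06). The shares of all genes there were 2.95% lower and 2.35% higher. Foxo1 itself was at -0.21, or -0.02 with arrays centred, -0.46 after intensity-dependent centring and -0.63 with probe sets averaged. A link between Foxo1 and the list was not tested. The IL-7 receptor gene Il7r was at 9.96 with IL-2 added in STAT5 wild-type cells and 12.26 in STAT3 wild-type cells (-2.30). Klf2, a factor of lymphocyte trafficking, was at 5.70 and 7.61 on the same arrays (-1.92), the first under background. The count was 4 with arrays centred and 6 after intensity-dependent centring. Without STAT3 the list went both ways, with Klf2 (2.03) and the homing receptor gene Ccr7 (1.04) higher and Sesn3, a stress-induced sestrin (-1.55), and Il7r (-1.16) lower. The list median was -0.59 there (all genes -0.20), and 2.85% of all genes were higher and 7.23% lower. Without STAT5, Il7r was higher (1.21) and Ccr7 lower (-1.03). The list median was -0.335 without STAT5 (all genes 0.07), and 1.86% of all genes were higher and 1.74% lower. Il7r in the STAT3 pair was at -0.91 with arrays centred.

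Of the 8 genes that BACH2 is known to repress, 4 exceeded background on at least 1 array, with a median of 0.05 without STAT5 and 0.55 between controls. Without STAT3, the Th2 cytokine gene Il13 was at 8.65 in STAT3-deficient and 5.33 in STAT3 wild-type cells (3.33), and it exceeded background on the STAT3-deficient array alone. Gata3, the Th2 regulator, was at 9.91 in STAT3-deficient and 6.69 in STAT3 wild-type cells (3.22). The other 2 compared genes lay within 2-fold there, with the chemokine receptor gene Ccr4 at 0.54 and Hmox1, heme oxygenase, at -0.88. The median of the 4 without STAT3, 1.88, falls in a wide gap. It includes Il13, which was compared only because of its level on the STAT3-deficient array, so it does not summarise the list. Gata3 was also higher without STAT5 (1.75). Bach2 itself was at -1.11 without STAT3 and 0.47 without STAT5, and its part in these values was not tested. Hmox1 was higher between controls with IL-2 added (1.40). Prdm1, Il4 and Il5 stayed under background on all 4 arrays. The 3 small MAF partners were within 2-fold throughout, with Maff farthest at -0.62 without STAT3 and -0.19 without STAT5.

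For the next 2 lists, 7.23% of all genes were lower and 2.85% higher without STAT3, and 1.86% higher and 1.74% lower without STAT5. Between controls the shares were 2.35% higher and 2.95% lower. Among 14 measured β-catenin pathway genes and Groucho partners of TCF-1 and LEF1, 1 was lower and none higher without STAT3 (median -0.46, all genes -0.20). This was Tle2, a Groucho corepressor, at 5.37 in STAT3-deficient and 7.55 in STAT3 wild-type cells (-2.18), the first under background. Without STAT5, Tle2 was lower (-1.03) and Nkd1, a Wnt feedback inhibitor, higher (1.03, or 0.97 with arrays centred), with a median of 0.23. Nkd1 was under background on the STAT5 wild-type array (5.61). Between controls none passed 2-fold. Of 8 coinhibitory and NR4A genes linked to TOX, 2 were higher and 1 lower in each deletion. Pdcd1, which encodes PD-1, was higher in both (1.28 without STAT3 and 1.32 without STAT5). Nr4a3, an activation-induced nuclear receptor, was at 3.09 without STAT3, but at 0.92 with its probe sets averaged, and its relative Nr4a2 at 1.69 without STAT5. Ctla4, a coinhibitory receptor gene, was at -1.14 without STAT3, and at -0.90 with arrays centred. Entpd1, which encodes CD39, was at -1.21 without STAT5, where its level on the STAT5-deficient array (5.46) was under background. Between controls none passed 2-fold.

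The 15 measured naive and stem-like genes split in direction in both deletions. The shares of all genes higher and lower were 2.85% and 7.23% without STAT3, 1.86% and 1.74% without STAT5, and 2.35% and 2.95% between controls. Without STAT3, 6 were higher and 2 lower (median 0.04, or 1.04 with 8 higher and 3 lower with probe sets averaged), among them Dapl1, a death-associated protein (3.79), Klf2, Id3, an inhibitor of E proteins (1.76), and Igfbp4, an IGF-binding protein (-1.70). Without STAT5, 2 were higher and 4 lower (median 0.02), led by Igfbp4 (-1.64), the survival gene Bcl2 (-1.60), Bcl6, the follicular helper regulator (1.59), and Il7r. Between controls 3 were lower with IL-2 added and none higher, led by Il7r and Klf2, or 2 and 2 with arrays centred. Of 7 compared paralogs of the factors, none passed 2-fold without STAT3, and Tox4, an HMG-box relative of Tox, was farthest at -0.92 (median -0.33, or 0.14 after intensity-dependent centring). Foxp3, the regulatory T cell factor related to Foxp1, was at 4.36 (under background) in STAT5-deficient cells and 7.73 in STAT5 wild-type cells (-3.37), and was 3.79 higher in STAT5 than in STAT3 wild-type cells (3.94, under background).

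**Figure D4:**
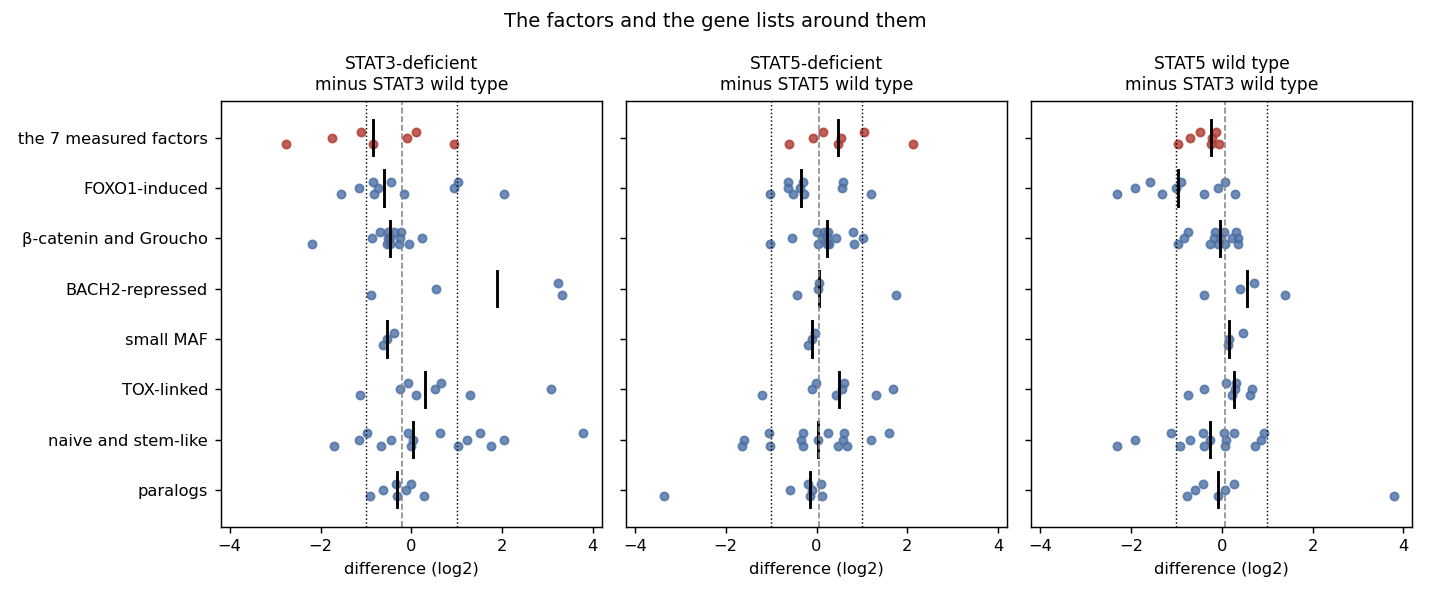
Difference (log2, horizontal axis) of each compared gene in the factors (red) and in 7 gene lists (blue) for the 3 comparisons; black bars are list medians, the dashed line is the median of all genes compared and dotted lines mark 2-fold. The FOXO1-induced list has 5 of 10 genes past 2-fold on the lower side in the control comparison, against 2.95% of all genes compared.

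The genes whose 4 levels most resembled those of a factor were found by the root mean square distance between levels taken as deviations from each gene's own mean, over 4 arrays and 12440 genes. For Satb1 they were Adarb1 (distance 0.063), an RNA-editing enzyme gene at -2.59 without STAT3 and 0.10 without STAT5, Sbk1 (0.10; -2.66 and 0.11) and Spsb1 (0.12; -2.52 and 0.36). For Tox2 they were Asic3 (0.12; -1.81 and 1.78), an acid-sensing channel gene, Msc (0.15; -1.34 and 2.10), the bHLH repressor musculin, and Acaa1b (0.18; -1.82 and 2.15). All 3 lay under background on the STAT3-deficient array, and Acaa1b exceeded it only on the STAT5-deficient one. For Bach2, Fam102b, Abtb1 and 1700123O20Rik lay within 0.032 of it. For Tox, St6galnac1, Ubtd2 and Dcp2 lay within 0.11. With only 4 points such likeness is a description.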

How the data were processed

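Expression was measured on an Affymetrix mouse array for each culture. The authors deposited values per probe set, which were read as log2 from their range of 2.48 to 15.09. Per the submitters' processing notes Affymetrix Power Tools was used. The sources used here name neither its version nor the log base, summarisation, background correction or centring. Another log base would change every fold printed. Groups came from the sample titles.

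Of 45101 probe sets, 34958 name 1 gene in the platform annotation. A gene's value is that of its probe set with the highest mean, and 12440 of 18194 genes (68.4%) had a level above 6.20 (percentile 50 of all values) on at least 1 array. The probe sets of each measured member carry its RefSeq gene identifier. With 1 array per group, results are differences with no test, called at 2-fold, and the number of arrays limits their precision. Computation used Python 3.11.15, pandas 2.3.3 and statsmodels 0.14.6.

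The members and lists were chosen with earlier results of these data known. Named genes were all members, up to 4 members of each list past 2-fold in a deletion (2 between controls) or else the farthest, 3 genes most like each called member, and the targeted genes. Genes that no probe set names alone (such as Tigit and Aes) were not analysed here. The alternatives were loess centring (span 0.4, called intensity-dependent above), centring on array medians, calls at 1.5-fold and 3-fold, averaged probe sets, leaving out probe sets of several transcripts, a stricter filter (percentile 75), none at all, and raising low values to the background level.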

Additional observations from a re-analysis of the deposited data

Results flagged for a closer look

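Tox2, Satb1 and Bach2 differed in opposite directions in the 2 deletions and passed 2-fold in at least 1 of them. The STAT5 effect minus the STAT3 effect was 3.86 for Tox2, 2.89 for Satb1 and 1.58 for Bach2. With 1 array per group the difference between the deletions was not tested. For Satb1 and Bach2 the STAT5 effect lay within 2-fold (0.13 and 0.47), so for these genes the opposite sign rests on small values.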

How the results depend on the processing

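No paired analysis was possible because each group had 1 array. Beside the values here, each count of called genes stayed within 1.5 times the value as deposited, and no called difference of the 7 factors turned its sign.

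With arrays centred on their medians, genes lower without STAT3 numbered 590, and between controls 593 were higher and 228 lower with IL-2 added. Loess centring gave 581 lower without STAT3. With calls at 1.5-fold, 704 genes were higher and 2389 lower without STAT3, 800 and 644 without STAT5, and 1344 and 1240 between controls. At 3-fold these were 179 and 343, 73 and 70, and 82 and 95. With the filter at percentile 75, 223 were higher and 551 lower without STAT3, 126 and 128 without STAT5, and 151 lower between controls. With no filter 383 were higher without STAT5 and 631 lower between controls, and 210 were lower there with low values raised to the background level.

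Of the factors, 1 was higher without STAT3 with arrays centred, with loess centring and at 1.5-fold, and 1 was lower with probe sets averaged. Without STAT5, 1 was higher with arrays centred, at 3-fold, with probe sets averaged and with probe sets of several transcripts left out, which gives Tox2 no value, and 1 was lower at 1.5-fold. Between controls 2 were lower at 1.5-fold and 1 with loess centring. Fewer or other genes tested, or another threshold, follow from these settings by construction, and for the centring the cause was not tested. With 1 array per group the spread between cultures is unknown.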

Other observations

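Effector T cell factors, which oppose the naive state, also differed in both deletions. Of 10 compared, 5 were lower and 1 higher without STAT3 (median -0.78, all genes -0.20), beside 7.23% lower and 2.85% higher of all genes. Without STAT5, 2 were higher, or 1 with either centring, and none lower (median 0.61, all genes 0.07). The shares of all genes there were 1.86% higher and 1.74% lower. Tbx21, which encodes T-bet, was higher in both (3.69 and 1.74), but both its control levels (5.25 in STAT3 wild-type and 6.13 in STAT5 wild-type cells) were under background. Maf (-2.41), Rora (-1.85) and Id2 (-1.60) were lower without STAT3, and Batf just passed 2-fold on the higher side without STAT5, or stood at 0.94 with arrays centred. Between controls Rora was lower with IL-2 added (-1.13, or -0.94 with arrays centred).

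Of 9 compared follicular helper genes, 3 were lower and 2 higher without STAT3 (median -0.29, all genes -0.20), beside 7.23% lower and 2.85% higher of all genes. Without STAT5, 3 were higher and none lower (median 0.24, all genes 0.07), beside 1.86% higher and 1.74% lower of all genes. Pou2af1, a B cell and follicular helper coactivator gene, moved in the same directions as Tox2 (-3.72 and 1.64), at 6.96 in STAT3-deficient, 10.68 in STAT3 wild-type, 11.17 in STAT5-deficient and 9.54 in STAT5 wild-type cells. Il21 (-6.23) and Cxcr5 (-1.95) were lower and Sh2d1a (1.79) higher without STAT3, with Il21 under background on the STAT3-deficient array (5.07), and Bcl6 (1.59) and Pdcd1 (1.32) were higher without STAT5. Between controls Cxcr5 (-1.24) and Pou2af1 (-1.14, or -0.95 with arrays centred) were lower with IL-2 added. No explanation of these values was tested.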
